A study of Mus musculus with 20 samples.

Results

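The RGS genes encode regulators of G-protein signalling, and 8 of them were examined in 3 cell populations of mouse leg muscle: Rgs2, Rgs3, Rgs4, Rgs5, Rgs10, Rgs12, Rgs16 and Rgs17. They were taken by symbol from the deposited count table of 24393 genes, in which 14 further RGS genes are also listed, and all 8 passed the filter on low counts that left 14179 genes for testing. The 8 were chosen from these same data: a large DKO difference of Rgs4 in 2 of the populations was among the results known when the set was proposed, and which values led to each of the other members is not recorded. Their levels, differences and counts are therefore given as description, without p-values.

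Cells came from the quadriceps, tibialis anterior and gastrocnemius of DKO and WT mice, and each library holds RNA of 1 population under 1 genotype. There were 20 libraries, 4 for each genotype in FAP and in Misc and 2 for each genotype in SMP. The labels name no agent, strain or age, and the genes lost in DKO are not named there either. How the cells were separated is likewise not given. From background knowledge of the study, and as an assumption, DKO is read as loss of desmin (Des) and nesprin 1 (Syne1). FAP commonly stands for fibro/adipogenic progenitors and SMP for skeletal muscle progenitors; Misc is used as labelled, since no label ties it to the third population that the design text lists as FB. Replicates are called biological, but no source used here ties them to separate animals, so the tests measure the spread between these libraries only.

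As background, a receptor of the seven-pass family activates a heterotrimeric G protein by loading its alpha subunit with GTP, and the signal lasts until that GTP is hydrolysed. RGS proteins speed the hydrolysis and so shorten the signal. Rgs2, Rgs3, Rgs4, Rgs5 and Rgs16 belong to the R4 subfamily of mostly small proteins that act on the Gi and Gq classes, and several of them are known for rapid transcription in response to the signals they limit. Rgs10 and Rgs12 belong to the R12 subfamily and act on the Gi class, and Rgs17 belongs to the RZ subfamily, known for action on Gz. In muscle tissue Rgs5 is best known as a gene of pericytes, the cells that wrap capillaries.

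Of the 8 genes, 4 lie on chromosome 1, and 2 of these, Rgs5 and Rgs4, are immediate neighbours there. In GRCm38.p6, the assembly named mm10, Rgs5 spans chr1:169655501-169695813 on the plus strand and Rgs4 spans chr1:169741477-169747642 on the minus strand. The gap between their facing 3′ ends is 45.7 kb and holds no other RefSeq gene. Rgs16 lies at chr1:153740353-153745468 on the plus strand and Rgs2 at chr1:143999338-144004149 on the minus strand. Of the rest, Rgs3 is on chromosome 4, Rgs12 on chromosome 5, Rgs10 on chromosome 7 and Rgs17 on chromosome 10. The 250 bases upstream of the annotated start of the 4 genes on chromosome 1 are shown because Rgs2, Rgs4 and Rgs16 differed between genotypes in the same direction as each other in every population, while the neighbour Rgs5 did not share that pattern. Sequences are from RefSeq (GRCm38.p6), 5′ to 3′ on the gene's own strand; capitals mark TGACG on either strand, the short form of the cyclic AMP response element that CREB-family factors bind.
Rgs4, chr1:169747643-169747892, minus strand: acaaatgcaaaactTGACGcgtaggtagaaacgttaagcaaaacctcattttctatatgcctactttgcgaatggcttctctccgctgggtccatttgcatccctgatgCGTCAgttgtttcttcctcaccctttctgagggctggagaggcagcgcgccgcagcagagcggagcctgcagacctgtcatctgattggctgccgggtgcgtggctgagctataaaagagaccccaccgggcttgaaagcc
Rgs2, chr1:144004150-144004399, minus strand: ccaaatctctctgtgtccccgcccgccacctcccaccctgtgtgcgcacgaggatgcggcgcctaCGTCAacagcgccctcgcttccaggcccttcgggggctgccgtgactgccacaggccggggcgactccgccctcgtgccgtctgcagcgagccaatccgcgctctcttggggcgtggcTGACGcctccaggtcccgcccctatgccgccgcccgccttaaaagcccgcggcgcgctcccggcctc
Rgs16, chr1:153740103-153740352, plus strand: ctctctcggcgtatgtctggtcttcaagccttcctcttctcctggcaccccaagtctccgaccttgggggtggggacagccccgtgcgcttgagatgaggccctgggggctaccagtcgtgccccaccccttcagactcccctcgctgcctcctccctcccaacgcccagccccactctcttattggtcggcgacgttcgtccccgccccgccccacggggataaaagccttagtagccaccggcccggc
Rgs5, chr1:169655251-169655500, plus strand: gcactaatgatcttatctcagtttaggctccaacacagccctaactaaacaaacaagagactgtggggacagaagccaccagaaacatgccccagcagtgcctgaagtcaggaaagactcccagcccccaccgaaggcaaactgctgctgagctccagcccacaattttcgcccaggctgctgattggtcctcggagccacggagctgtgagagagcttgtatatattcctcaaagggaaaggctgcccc

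The windows of Rgs4 and Rgs2 each held 2 copies of this short element. Those of Rgs16 and Rgs5 held none, although Rgs16 moved with Rgs2 across the libraries. Across 32851 RefSeq windows of the same length, 17.8% held at least 1 copy, so a match is common. A further 4 motifs were searched on both strands in all windows of the 8 genes: the full element TGACGTCA, which contains the short one (1.55% of all windows), the AP-1 site TGANTCA (6.75%), the E-box CANNTG (66.2%) and the RBPJ core TGGGAA (21.6%). The full element was in no window of a member. An AP-1 match stood in the window of Rgs17 and in 1 of the windows of Rgs12, which also held a short element. The Rgs4 window held 4 E-boxes and an RBPJ match was found for Rgs3 only among the 8. The window of Rgs2 was 72.4% G and C and that of Rgs16 66.4%, whereas Rgs4 and Rgs5 both stood at 53.6%, near the median of 52.4% over all windows.

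Library totals ranged from 5826000 to 17730111 counts, the lowest being the 2 SMP DKO libraries, and levels below are CPM, counts scaled to a common library total after TMM. Des was lower in every DKO library than in every WT library of FAP (3.43 to 5.33 against 14.2 to 18.3 CPM) and of SMP (54.2 and 75.4 against 171 and 184 CPM), while in Misc the ranges overlapped (1.37 to 2.27 against 2.16 to 4.74 CPM). Syne1 was lower in SMP (35.9 and 37 against 69.2 and 79.5 CPM) and in Misc (59.2 to 75.5 against 85.5 to 130 CPM), with overlap in FAP. Of the markers of the labelled cells, Pdgfra was at 935 to 1340 CPM in FAP, and the summed muscle progenitor list was highest in SMP, at 2191 to 2820 CPM. Misc had 51632 to 73693 CPM of 8 tendon markers and also 291 to 485 CPM of Pdgfra. Most of that tendon sum came from Fmod (17800 to 31700 CPM) and Thbs4 (15000 to 39100 CPM). In Misc DKO, Scx and Thbs4 were called higher than in WT and Mkx, Kera and Chad lower, where 18.7% of all genes tested were called. One library stood apart. SMP DKO replicate 2 had 406 CPM of 12 leukocyte markers against 35.4 in replicate 1 and 23.1 to 30.4 in SMP WT, 636 CPM of 10 endothelial markers against 120 in replicate 1, and Pdgfra at 112 against 10.1 CPM. SMP DKO results are given with and without it where they depend on it. In bulk RNA, a change in the share of cells of 1 kind and a change of RNA per cell cannot be told apart.

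**Figure D1:**
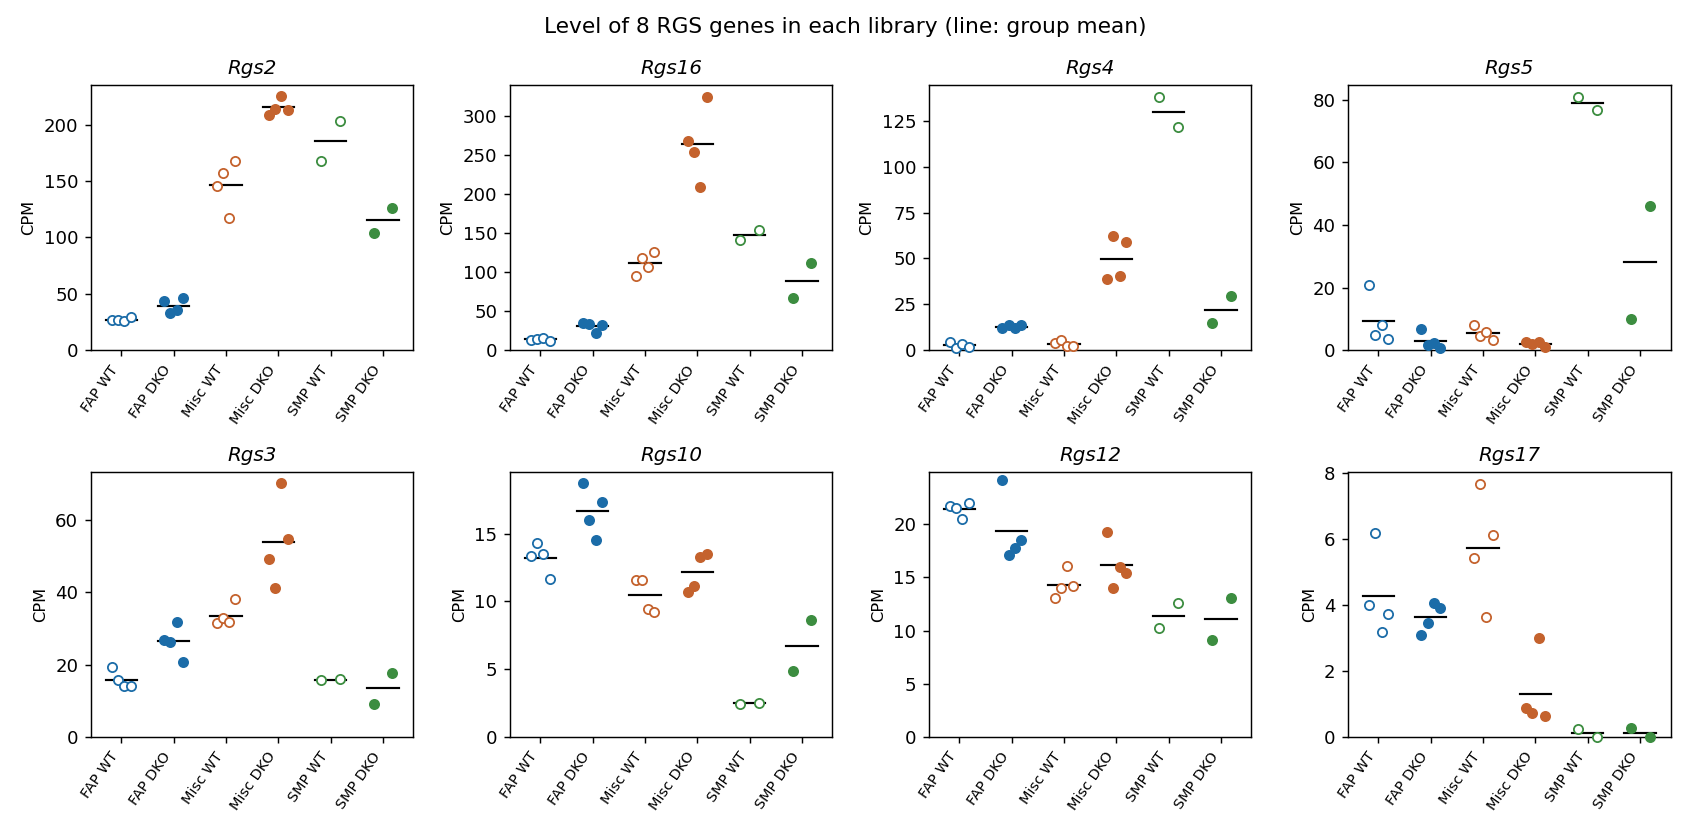
Level in CPM (linear axis from 0) of each of the 8 RGS genes in the 20 libraries; open circles are WT, filled circles DKO, and a line marks each group's mean. Rgs2, Rgs16 and Rgs4 are higher in DKO within FAP and Misc and lower in DKO within SMP, whereas Rgs5 is highest in the 2 SMP WT libraries (80.7 and 76.9 CPM).

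Compared per exon length, the populations differed in which RGS gene was most abundant. In FAP the leading gene was Rgs10, at 11.6 ± 0.990 CPM per kb in WT and 14.6 ± 1.59 in DKO (SD, n = 4), or 33.4% and 28.2% of the summed level of the 8. In Misc the leading gene was Rgs16, at 47.5 ± 5.92 CPM per kb in WT and 113 ± 20.3 in DKO (SD, n = 4), with 42.7% and 52.1% of the sum. Rgs2 came next in Misc, at 45.1 ± 6.72 and 66.2 ± 2.14 CPM per kb. In SMP WT, Rgs16 (63 ± 3.69 CPM per kb), Rgs2 (57 ± 7.65) and Rgs4 (44 ± 3.92, each SD, n = 2) together made up most of the sum. Rgs17 was the lowest of the 8 in every group, at 0.697 ± 0.203 CPM per kb or less. The summed level of the 8 was 34.7 ± 2.56 CPM per kb in FAP WT and 51.7 ± 5.59 in FAP DKO, 111 ± 11.4 and 216 ± 20.8 in Misc, and 187 ± 7.14 and 96.5 ± 31.1 in SMP. So the sum was higher in DKO in FAP and Misc and lower in SMP.

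**Figure D2:**
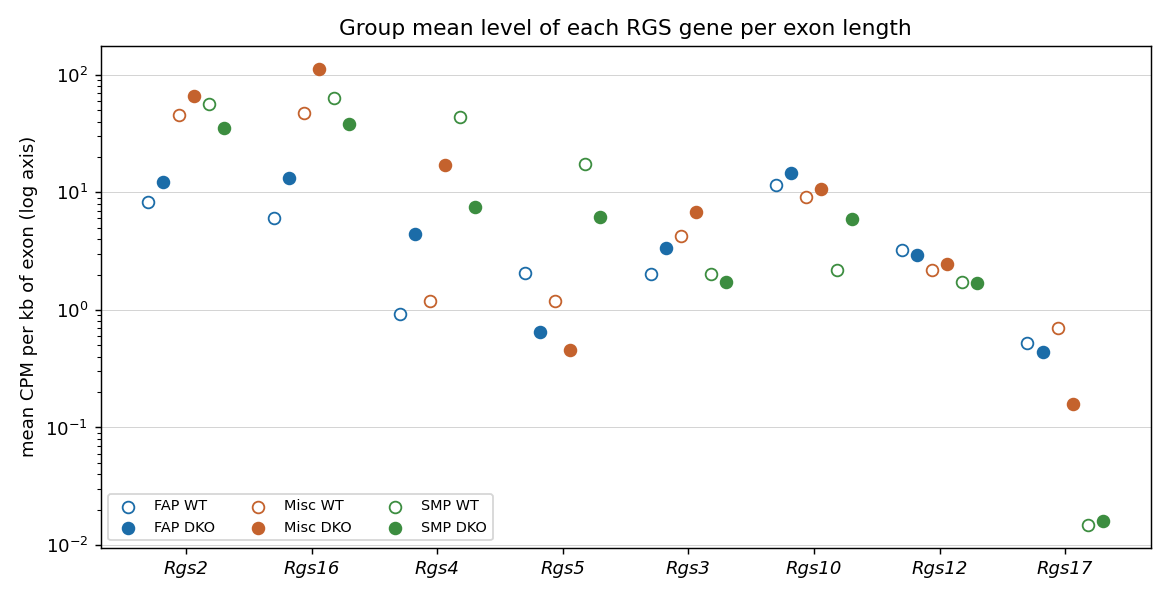
Group mean level per kb of exon, on a log axis, for each of the 8 genes; open circles are WT and filled circles DKO. Rgs16 in Misc DKO (113 CPM per kb) is the highest point, and Rgs17 in SMP, with 3 counts or fewer in a library, the lowest.

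Rgs4, an R4 member acting on Gi and Gq and known as a protein with a very short life, varied most between the groups. In SMP WT it stood at 138 and 121 CPM, and in SMP DKO at 14.6 and 29.3 CPM. In Misc it stood at 38.7, 62, 40.3 and 58.8 CPM in DKO and at 4.01, 5.44, 2.28 and 2.16 CPM in WT. In FAP it stood at 12, 13.8, 11.9 and 13.9 CPM in DKO and at 4.32, 1.42, 3.42 and 1.81 CPM in WT. No DKO library overlapped the WT range of its population, and the direction in SMP was opposite to that in FAP and Misc. On the log2 scale the DKO minus WT difference was 3.79 ± 0.30 (SE) in Misc, a 13.9-fold higher level, 2.18 ± 0.33 in FAP, a 4.54-fold higher level, and −2.57 ± 0.37 in SMP, a 5.92-fold lower level. Without SMP DKO replicate 2 the SMP difference was −3.16 ± 0.44, and without replicate 1 it was −2.16 ± 0.41.

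The order of the populations for Rgs4 therefore turned with genotype. In WT, Rgs4 in SMP was 45.7-fold above FAP and 35.9-fold above Misc, with FAP and Misc overlapping (2.74 ± 1.36 and 3.47 ± 1.56 CPM, SD, n = 4). In DKO the highest group was Misc (49.9 ± 12.2 CPM), followed by SMP (22 ± 10.4, n = 2) and FAP (12.9 ± 1.09). The Misc and SMP ranges did not overlap, with a log2 difference of 1.19 ± 0.33, which was 0.79 ± 0.37 without SMP DKO replicate 1, past the threshold only with that library. The FAP and SMP ranges in DKO did not overlap either, at −0.76 ± 0.33. This last difference missed the threshold and passed it by DESeq2 and without SMP DKO replicate 1 (−1.17 ± 0.36).

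Rgs16, an R4 member that acts on Gi and Gq and is transcribed quickly after stimulation, followed the same direction with smaller differences at higher levels. In Misc it stood at 267, 254, 209 and 324 CPM in DKO and at 94.5, 118, 106 and 126 CPM in WT. In FAP it stood at 35.4, 34, 21.5 and 32 CPM in DKO and at 13.4, 15, 15.4 and 12.4 CPM in WT. In SMP it stood at 66.4 and 112 CPM in DKO and at 141 and 153 CPM in WT. The genotypes did not overlap in any population, and every Misc and SMP library was above every FAP library. The DKO minus WT log2 difference was 1.25 ± 0.16 (SE) in Misc, 1.12 ± 0.18 in FAP and −0.73 ± 0.23 in SMP. The SMP difference is the least firm of the 3: it was −0.41 ± 0.24 without SMP DKO replicate 1 and −1.16 ± 0.25 without replicate 2, and it passed the threshold in 1 of the 4 fits that left out an SMP library. FAP was 7.89-fold below Misc in WT and 8.59-fold below it in DKO.

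Rgs2, the R4 member best known for its preference for the Gq class and for limiting responses to vasoconstrictors, was the member with the highest total count (22984). In Misc it stood at 209, 214, 225 and 213 CPM in DKO and at 146, 157, 117 and 167 CPM in WT. In FAP it stood at 43.3, 33.4, 36 and 46 CPM in DKO and at 26.5, 26.5, 25.9 and 29.8 CPM in WT. In SMP it stood at 104 and 126 CPM in DKO and at 168 and 203 CPM in WT. Again the genotypes did not overlap, with higher levels in DKO in FAP and Misc and lower levels in DKO in SMP. The log2 differences were 0.55 ± 0.12 (SE) in FAP, 0.55 ± 0.11 in Misc and −0.69 ± 0.16 in SMP, where they ranged from −0.84 to −0.56 when 1 SMP library was left out. FAP lay 5.41-fold below Misc in each genotype. Misc lay 1.26-fold below SMP in WT, which passed the threshold in only 2 of the 6 fits that left out a library (not without Misc WT replicate 1, 2 or 3 or SMP WT replicate 2), and 1.87-fold above it in DKO.

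Rgs3, a larger R4 gene whose products act on Gi and Gq, was highest in Misc. It stood at 49, 41.2, 70.2 and 54.8 CPM in Misc DKO and at 31.4, 32.8, 31.8 and 38 CPM in Misc WT. In FAP it stood at 26.9, 26.2, 31.8 and 20.8 CPM in DKO and at 19.4, 15.7, 14 and 14 CPM in WT. In SMP it stood at 9.09 and 17.8 CPM in DKO and at 15.7 and 16 CPM in WT, so that these groups overlapped. The DKO minus WT log2 difference was 0.74 ± 0.18 (SE) in FAP and 0.69 ± 0.17 in Misc, and in SMP it was −0.25 ± 0.27. Without SMP DKO replicate 2 the SMP value was −0.81 ± 0.30 and without replicate 1 it was 0.15 ± 0.28, so its sign rests on single libraries.

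Rgs5, the R4 gene used as a marker of pericytes, differed several-fold between libraries of 1 group in FAP, Misc and SMP DKO. In SMP WT it stood at 80.7 and 76.9 CPM, and in SMP DKO at 10.1 and 46.1 CPM. In FAP it stood at 6.9, 1.72, 2.42 and 0.784 CPM in DKO and at 20.8, 4.76, 8.18 and 3.52 CPM in WT. In Misc it stood at 2.74, 1.92, 2.64 and 1.04 CPM in DKO and at 8.07, 4.57, 5.92 and 3.29 CPM in WT. The DKO groups had the lower mean in each population, with overlap in FAP and none in Misc or SMP. The log2 differences were −1.62 ± 0.68 (SE) in FAP, −1.42 ± 0.78 in Misc and −1.5 ± 0.75 in SMP, and none passed the threshold in the fit over all groups. With only the Misc libraries in the fit, the Misc difference did pass (−1.40 ± 0.32). In each of the 4 FAP and Misc groups the libraries fell in the order of replicate 1, 3, 2 and 4 from the highest Rgs5 to the lowest, and DKO was below WT within each number, though no label says that numbers pair the genotypes. In FAP the value was −0.85 ± 0.65 without FAP WT replicate 1 and −2.53 ± 0.79 without FAP DKO replicate 1; in SMP it was −2.97 ± 0.97 without SMP DKO replicate 2. SMP was 8.29-fold above FAP in WT, or 14.2-fold without FAP WT replicate 1, and 14-fold above Misc in WT, and in DKO the log2 difference was −3.18 ± 0.75 for FAP minus SMP and −3.73 ± 0.80 for Misc minus SMP. Both of the latter missed the threshold without SMP DKO replicate 2, at −1.70 ± 0.93 and −2.26 ± 0.98.

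**Figure D3:**
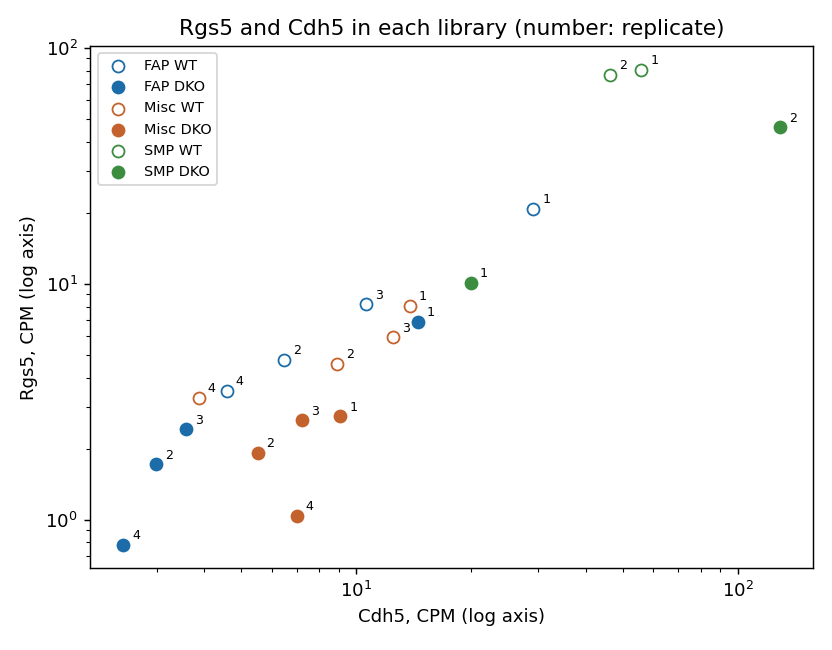
Rgs5 against the endothelial gene Cdh5 (VE-cadherin) in the 20 libraries, both in CPM on log axes, with the replicate number beside each point. In FAP WT, FAP DKO and Misc WT the libraries fall in the same order for both genes, and the first FAP replicate is highest for both in each genotype (Rgs5 20.8 and 6.9 CPM).

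Genes of other vessel cells moved with Rgs5 between libraries. Cdh5 stood at 29.1, 6.48, 10.6 and 4.57 CPM in FAP WT and at 14.5, 2.98, 3.58 and 2.45 CPM in FAP DKO, which is the order of Rgs5 in both groups. In SMP, Cdh5 was at 20 and 129 CPM in DKO and at 55.9 and 46.2 CPM in WT, so that the library with the most Cdh5 was not the one with the most Rgs5. Among the genes whose log2 CPM was most like that of Rgs5 over the 20 libraries were Ptprb (r = 0.959), a phosphatase of endothelium, and Flt1 (r = 0.931), a VEGF receptor. These r describe libraries that share populations and carry no test. Of the endothelial list, 1 of 10 tested genes (Tek) was called in each DKO comparison, in each case lower, and its summed level was 143 to 248 CPM in FAP DKO against 308 to 397 in FAP WT and 55.8 to 88.7 against 97.5 to 133 in Misc. Without Tek these sums overlapped, at 21.5 to 82.6 against 31.3 to 127 CPM in FAP and 35.8 to 63 against 33.8 to 69.7 in Misc. For SMP, the DKO libraries had full sums of 120 and 636 CPM and those of WT 226 and 315. Of 11 pericyte and smooth muscle markers, 1 (Cspg4, the NG2 proteoglycan) was called in each DKO comparison, also lower. Beside these endothelial and pericyte counts, 10.7% of all genes tested were called in FAP, 18.7% in Misc and 23.0% in SMP. The pericyte sum was 459 to 529 CPM in FAP DKO against 413 to 564 in WT, 546 to 613 against 556 to 689 in Misc, and 1317 and 1511 against 1631 and 1656 in SMP, with no marker at 0 in all libraries of a group. Most of the pericyte sum in FAP and Misc came from Pdgfrb, at 276 to 400 CPM over the FAP libraries and 357 to 464 over those of Misc. It therefore says little there about the other pericyte and smooth muscle markers, which differed in direction. Myh11 had a lower DKO mean in FAP (2.52 to 10.8 CPM, WT 7.52 to 18.1) and Misc (5.57 to 11.2, WT 5.9 to 25.6). Tagln had a higher DKO mean in Misc (31.3 to 50.4 CPM, WT 18.5 to 36.3). All these FAP and Misc ranges overlapped. In SMP, with 2 libraries for each genotype, Myh11, Notch3, Cnn1, Higd1b and Cspg4 were lower in DKO without overlap. Myh11 there was at 122 and 149 CPM in DKO and at 233 CPM or more in WT. Tagln was higher in SMP DKO without overlap (201 and 275 CPM, WT 183 and 155). The SMP ranges of Pdgfrb, Mcam, Kcnj8, Abcc9 and Acta2 overlapped. Of the list, only Cspg4 was called in SMP. The Schwann cell sum ran from 13.6 to 74.2 CPM in FAP and Misc and from 210 to 336 CPM in SMP. The part of these cells in the Rgs5 values was not tested.

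**Figure D4:**
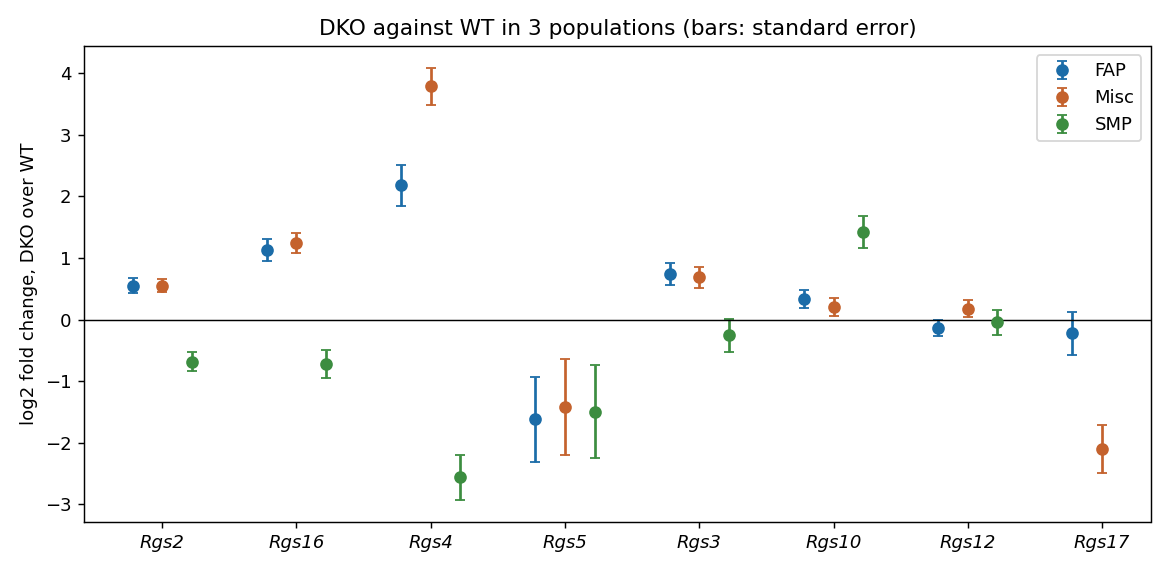
Log2 difference, DKO minus WT, for each RGS gene in FAP, Misc and SMP, with bars of 1 standard error; Rgs17 in SMP is left out because its libraries hold 3 counts or fewer. Rgs4 runs from 3.79 in Misc to −2.57 in SMP, and Rgs10 is the one gene with its largest positive value in SMP (1.42).

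Rgs10, a small R12 member that acts on Gi and is best known in leukocytes and microglia, had its highest level in FAP. It stood at 18.7, 16, 14.5 and 17.3 CPM in FAP DKO and at 13.3, 14.3, 13.5 and 11.6 CPM in FAP WT. In Misc it stood at 10.7, 11.1, 13.3 and 13.5 CPM in DKO and at 11.6, 11.6, 9.47 and 9.2 CPM in WT. In SMP it stood at 4.88 and 8.59 CPM in DKO and at 2.43 and 2.54 CPM in WT. SMP was thus the population with the least Rgs10 and the largest DKO difference, a log2 value of 1.42 ± 0.26 (SE) against 0.34 ± 0.15 in FAP, where the groups did not overlap but the threshold was missed, and 0.21 ± 0.15 in Misc. SMP DKO replicate 2, with the higher Rgs10, is the library with 406 CPM of leukocyte markers. In SMP DKO 6 of 9 tested leukocyte markers were called higher, among them Csf1r and Laptm5, where 23.0% of all genes tested were called. The leukocyte markers Itgam, Tyrobp and Emr1 were at 0 in both SMP WT libraries and also in SMP DKO replicate 1. Cd3e was at 0 in every library of the series. Csf1r was at 0.132 CPM in SMP DKO replicate 1 and at 39 CPM in replicate 2. Without SMP DKO replicate 2 the Rgs10 difference was 0.96 ± 0.31, or 1.94-fold above WT. Replicate 1 had a leukocyte sum of 35.4 CPM and Pdgfra at 10.1 CPM.

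Rgs12, a large R12 member with several signalling domains beside the RGS domain, varied least. It stood at 24.2, 17.1, 17.7 and 18.5 CPM in FAP DKO and at 21.7, 21.5, 20.5 and 22 CPM in FAP WT. In Misc it ranged from 14 to 19.3 CPM in DKO and from 13.1 to 16 CPM in WT, and in SMP from 9.09 to 13 CPM over all 4 libraries. Genotypes overlapped in all 3 populations, with log2 differences of −0.14 ± 0.13 (SE) in FAP, 0.18 ± 0.14 in Misc and −0.04 ± 0.21 in SMP. FAP was 1.5-fold above Misc and 1.88-fold above SMP in WT.

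Rgs17, the RZ member, was the least abundant of the 8, with 657 counts in all 20 libraries. In Misc WT it stood at 5.42, 7.65, 3.64 and 6.13 CPM, and in Misc DKO at 0.871, 0.718, 3 and 0.647 CPM. In FAP it stood at 4, 6.18, 3.17 and 3.71 CPM in WT and at 3.08, 3.45, 4.07 and 3.92 CPM in DKO. Misc DKO lay below Misc WT without overlap, although its replicate 3 came close, while the FAP genotypes overlapped. The log2 difference was −2.11 ± 0.40 (SE) in Misc, a 4.30-fold lower level, and −0.22 ± 0.35 in FAP. Without Misc DKO replicate 3 the Misc value was −2.92 ± 0.40, a 7.56-fold lower level. The SMP libraries held 3 and 0 counts in WT and 2 and 0 in DKO, so no genotype difference is given there. Scaled to library totals, the Rgs17 count of FAP WT was 33.2 times that of SMP WT, with a 95% counting interval of 11.2 to 162 (exact, from 189 against 3 counts), and in Misc WT 45.3 times (15.3 to 221, from 283 against 3); these intervals cover counting error only. In DKO the ratios to SMP were 26.1 (7.09 to 218) for FAP and 9.50 (2.47 to 80.9) for Misc, each against 2 counts.

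Counted over the set by edgeR's quasi-likelihood test at a Benjamini-Hochberg adjusted p under 0.05, 4 of the 8 members passed in FAP DKO against WT (Rgs2, Rgs3, Rgs4 and Rgs16, all higher), where 10.7% of all genes tested passed. In Misc 5 passed, the same 4 higher and Rgs17 lower, against 18.7% of all genes. In SMP 4 passed, Rgs10 higher and Rgs2, Rgs4 and Rgs16 lower, against 23.0% of all genes; 4 passed without SMP DKO replicate 2, and 3 without replicate 1, which lost Rgs16. With only the SMP libraries in the fit, 2 passed in SMP, and Rgs10 and Rgs16 did not. The median log2 difference of the 8 was 0.44 in FAP, 0.38 in Misc and −0.47 in SMP, beside −0.01, 0.01 and 0.01 over all genes. Nothing is read from these counts, because the same comparisons were known when the genes were chosen.

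Between populations, 4 of the 8 members passed in FAP against Misc in WT (36.9% of all genes) and 6 in DKO (29.7%). The WT count was 7 in a fit with each replicate number as a block within genotype, which added Rgs5 (0.65 ± 0.20), Rgs10 (0.31 ± 0.12) and Rgs17 (−0.43 ± 0.18). FAP against SMP gave 7 members in WT (62.3%) and 7 in DKO (58.8%), and Misc against SMP gave 6 in WT (60.6%) and 8 in DKO (59.5%), of which 5 were left without SMP DKO replicate 1. Rgs2 and Rgs16 were lower in FAP than in Misc and SMP in each genotype, while Rgs10 was higher in FAP and in Misc than in SMP in each genotype. These comparisons share their libraries pairwise.

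The difference between the DKO effects was tested as an interaction across all genes. For FAP minus SMP 4 members passed (10.3% of all genes), with log2 values of 4.75 ± 0.50 (SE) for Rgs4, 1.85 ± 0.29 for Rgs16, 1.24 ± 0.20 for Rgs2 and −1.09 ± 0.30 for Rgs10. For Misc minus SMP the same 4 passed (8.94% of all genes), at 6.36 ± 0.49, 1.98 ± 0.28, 1.24 ± 0.19 and −1.22 ± 0.30. Without SMP DKO replicate 2 or without SMP WT replicate 1 the Rgs10 values no longer passed, and that of FAP minus SMP did not pass without SMP WT replicate 2 either. For FAP minus Misc 0 members passed in edgeR's quasi-likelihood test (2.79% of all genes), 2 did at an unadjusted p under 0.05 (Rgs4 and Rgs17) and the same 2 by DESeq2. The Rgs4 value there was −1.61 ± 0.47 and that of Rgs17 1.88 ± 0.53. This count of 0 leaves out the pairing of FAP with Misc libraries. With each replicate number as a block within genotype, an alternative chosen after seeing the data, the same 2 passed, Rgs4 at −1.60 ± 0.33 and Rgs17 at 1.94 ± 0.37, among 1246 genes called against 396 without the block. The 2 interactions with SMP share the SMP libraries, and since Rgs4 took part in the choice they too are descriptions.

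Across the 20 libraries, Rgs2 and Rgs16 were the most alike pair of members (Pearson r of log2 CPM = 0.976), and Rgs4 and Rgs5, the chromosomal neighbours, had r = 0.23. The gene most like Rgs2 among all genes tested was Chodl (r = 0.985), a membrane lectin listed here among muscle progenitor markers, followed by Col22a1 (r = 0.980), a collagen of tissue junctions. For Rgs16 the order was Col22a1 (r = 0.982) and Chodl (r = 0.971). Chodl stood at 1095 ± 103 CPM in Misc DKO and 354 ± 44.1 in Misc WT (SD, n = 4), 381 ± 102 in SMP DKO and 971 ± 37.5 in SMP WT (SD, n = 2), and 18.1 ± 4.84 and 5.75 ± 2.31 in FAP. Col22a1 stood at 845 ± 107 and 200 ± 29 CPM in Misc, 162 ± 20.8 and 452 ± 35.6 in SMP and 9.48 ± 3.85 and 2.72 ± 1.99 in FAP, in each case DKO first. Both genes thus had the directions of Rgs2 and Rgs16 in all 3 populations. Among the genes most like Rgs4 were Slc7a2 (r = 0.897), a transporter of cationic amino acids, and the heat shock gene Hspa1b (r = 0.892). Hspa1b stood at 15574 ± 2464 CPM in Misc DKO against 8946 ± 1279 in WT and at 15670 ± 1229 CPM in SMP DKO against 23152 ± 2705 in WT, and its part in the Rgs4 pattern was not tested. For Rgs3 the genes were Syt11, Emilin1 and Tgfb3 (r of 0.924 to 0.928), for Rgs10 S100a6 (r = 0.987), Slc41a2 and Bst2, and for Rgs12 Mpp1, Stx4a and Lynx1. For Rgs17 they were Vangl1, Kcng4 and Arhgap21, of which only Arhgap21 remained among the closest 3 with a larger prior count. The r values rest on 6 groups more than on 20 independent points and carry no test.

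Of the 14 further RGS genes in the table, 7 had enough counts to be tested: Rgs1, Rgs6, Rgs7, Rgs8, Rgs9, Rgs11 and Rgs19. Over all genes tested, 10.7% were called in FAP, 18.7% in Misc and 23.0% in SMP, in either direction. None of the 7 was called in FAP DKO against WT. In Misc 1 was called, Rgs6, a member of the R7 subfamily, which fell from 5.90 ± 1.19 to 2.34 ± 0.848 CPM (SD, n = 4; edgeR quasi-likelihood test, Benjamini-Hochberg adjusted p = 0.017). In SMP 2 were called. Rgs19 rose from 2.51 ± 0.913 to 4.84 ± 0.980 CPM (n = 2; edgeR adjusted p = 0.045), and Rgs1, best known in lymphocytes, had 31 counts in SMP DKO replicate 2, 1 in replicate 1 and 0 in SMP WT. Without SMP DKO replicate 2, the library rich in leukocyte markers, neither Rgs1 nor Rgs19 passed. Rgs19 was lower in that library (4.15 CPM) than in SMP DKO replicate 1 (5.53 CPM). Its log2 difference without replicate 2 was 1.14 ± 0.40, in a fit with 1 SMP DKO library. The part of leukocytes in the Rgs19 difference was not tested. The median log2 difference of the 7 was 0.35 in FAP, 0.26 in Misc and −0.78 in SMP, beside −0.01, 0.01 and 0.01 over all genes.

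Alpha subunits of some classes are the direct targets of RGS proteins, and the list here was not limited to the Gi, Gq and Gz classes named above. Of 13 tested alpha subunits, 1 fell in FAP DKO, 2 in Misc and 3 in SMP, and none rose. The same count of 3 fell in SMP without SMP DKO replicate 2. Beside these and the list counts that follow, 10.7% of all genes tested were called in FAP, 18.7% in Misc and 23.0% in SMP, in either direction. Gnai1, an inhibitory alpha subunit, fell in SMP from 36.5 ± 0.185 to 14.2 ± 1.19 CPM (log2 −1.36 ± 0.19, edgeR adjusted p = 3.4e-05), beside 50.9 ± 8.62 CPM in Misc DKO and 52.3 ± 4.54 in Misc WT. Gnao1, the alpha subunit of Go, fell in SMP (log2 −0.87 ± 0.16, edgeR adjusted p = 0.00054) and in FAP (−0.53 ± 0.12, adjusted p = 0.0041). Gnaq, which activates phospholipase C, fell in SMP (−0.58 ± 0.12, edgeR adjusted p = 0.0017) and in Misc (−0.35 ± 0.09, adjusted p = 0.0047). The median over the 13 was −0.04 in FAP, −0.06 in Misc and 0.18 in SMP, where it was −0.11 without SMP DKO replicate 2. Of 14 beta and gamma subunits, 1 rose and 1 fell in each population. In SMP without SMP DKO replicate 2, 1 rose (Gng5, 0.57 ± 0.19, edgeR adjusted p = 0.048) and 2 fell (Gng7 and Gnb5, the latter at −1.14 ± 0.25, edgeR adjusted p = 0.0031); Gng5 and Gnb5 were named after their values were seen. With all libraries, the one that fell was Gng7 in all 3 populations, by 1.01 in FAP, 1.37 in Misc and 1.19 in SMP on the log2 scale (edgeR adjusted p = 0.0012, 4.9e-05 and 0.016). Gnb4 rose in FAP (0.34 ± 0.09, adjusted p = 0.014) and Misc (0.40 ± 0.09, edgeR adjusted p = 0.0022), and Gnb2 in SMP (0.44 ± 0.16, adjusted p = 0.043), which did not pass without SMP DKO replicate 2 (edgeR adjusted p = 0.26). The medians over these 14 were 0.19, 0.08 and −0.02, the last being −0.22 without SMP DKO replicate 2.

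Among 11 adenylyl cyclases and phospholipase C beta genes, the enzymes downstream, 1 rose and 3 fell in FAP, 2 rose and 3 fell in Misc and 1 rose and 3 fell in SMP (medians −0.06, −0.21 and −0.22). Adcy5, a cyclase that Gi inhibits, fell in FAP from 29.8 ± 2.44 to 15.6 ± 2.42 CPM (edgeR adjusted p = 0.00025), in Misc from 26.6 ± 1.44 to 10.6 ± 3.43 CPM (adjusted p = 2.7e-06) and in SMP from 10 ± 2.40 to 5.18 ± 0.429 CPM (edgeR adjusted p = 0.013). Plcb4 rose in FAP (0.32 ± 0.09, adjusted p = 0.022) and Misc (0.46 ± 0.09, edgeR adjusted p = 0.00067). In SMP Adcy7 fell (−0.83 ± 0.16, edgeR adjusted p = 0.00071), Plcb3 fell (−0.40 ± 0.13, adjusted p = 0.028) and Adcy3 rose (0.64 ± 0.22, adjusted p = 0.036). Without SMP DKO replicate 2, Adcy5 and Adcy7 still passed in SMP, and Plcb3 and Adcy3 did not (edgeR adjusted p = 0.24 and 0.31). Adcy9 fell in FAP (−0.37 ± 0.11, adjusted p = 0.037) and Misc (−0.67 ± 0.12, edgeR adjusted p = 0.00028), Adcy1 in FAP (−1.19 ± 0.35, adjusted p = 0.031) and Adcy2 in Misc (−0.38 ± 0.12, adjusted p = 0.033).

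Receptor kinases, arrestins and modulators, which end signalling at the receptor or handle the alpha subunit apart from it, numbered 14. None passed in FAP, 4 fell in Misc, and 1 rose and 3 fell in SMP (medians −0.14, −0.05 and 0.08). The SMP median was −0.24 without SMP DKO replicate 2. In Misc, Arrb1 (beta-arrestin 1) fell from 47.1 ± 4.29 to 32.1 ± 3.79 CPM (edgeR adjusted p = 0.0017), Adrbk2 (the receptor kinase Grk3) from 5.15 ± 1.52 to 2.37 ± 0.783 CPM (adjusted p = 0.0024), Grk5 by 0.46 on the log2 scale (edgeR adjusted p = 0.025) and Gpsm1 by 0.34 (adjusted p = 0.049). In SMP, Arrb1 fell by 0.49 (edgeR adjusted p = 0.036), Gpsm1 by 0.49 (adjusted p = 0.043) and Ric8b by 0.35 (adjusted p = 0.029), and Gpsm2 rose by 0.59 (edgeR adjusted p = 0.048). Of these 4, Arrb1 alone kept its call without SMP DKO replicate 2, at −0.82 ± 0.19. The differences of the others changed little there, at −0.45 ± 0.21 for Gpsm1, −0.34 ± 0.15 for Ric8b and 0.61 ± 0.26 for Gpsm2.

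Of 36 tested receptors that couple to Gq or Gi, 4 rose and 4 fell in FAP, 7 rose and 9 fell in Misc, and 5 rose and 4 fell in SMP (medians −0.19, −0.14 and 0.31). Without SMP DKO replicate 2, 4 rose and 3 fell in SMP and the median was 0.02. F2r, the thrombin receptor PAR1, rose in FAP from 59.4 ± 7.93 to 178 ± 35.7 CPM (edgeR adjusted p = 1.1e-08), and in SMP it was at 651 CPM in DKO and 713 CPM in WT (adjusted p = 0.63). F2rl1, the related receptor PAR2, stood at 1.72 ± 0.532 CPM in FAP WT and 14.7 ± 1.55 in FAP DKO, and at 0.963 ± 0.300 in Misc WT and 13.7 ± 2.13 in Misc DKO, given without a test because it was among the results known when the list was written. Ednra, the endothelin A receptor, rose in FAP (1.07 ± 0.19, edgeR adjusted p = 0.00047) and fell in SMP (−1.46 ± 0.31, adjusted p = 0.0021). Adra1a, an adrenergic receptor of the Gq class, fell in FAP from 13.4 ± 1.26 to 4.44 ± 0.712 CPM (edgeR adjusted p = 4.4e-06) and in Misc from 17.4 ± 4.16 to 4.44 ± 0.488 CPM (adjusted p = 1e-07). Agtr1a, the angiotensin II receptor, fell in Misc from 40.5 ± 4.53 to 13.5 ± 1.37 CPM (edgeR adjusted p = 3.3e-06), as did Npy1r, a neuropeptide Y receptor (−2.07 ± 0.33, adjusted p = 9.1e-05). In SMP, Bdkrb1, a bradykinin receptor, fell from 40.8 ± 5.49 to 10.9 ± 1.5 CPM (edgeR adjusted p = 2e-05), while the nucleotide receptors P2ry2 (1.51 ± 0.24, adjusted p = 1e-04) and P2ry14 (1.36 ± 0.24, edgeR adjusted p = 0.00029) rose. Ednra in SMP was at −2.26 ± 0.38 without SMP DKO replicate 2, and Bdkrb1, P2ry2 and P2ry14 kept their calls there. All these lists, from the further RGS genes to the receptors, were chosen with earlier results of the data known. The adjusted p-values printed for their genes are therefore description and not independent tests.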

How the data were processed

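RNA of 20 libraries was measured on an Illumina HiSeq 2500, and reads were mapped with OSA to mm10 using RefSeq annotation, per the series design text. The authors deposited raw counts per gene. The submitters' processing notes also name DESeq2; no source used here gives the counting tool or whether it used strand, so reads of overlapping genes on opposite strands cannot be told apart. The 8 members and all gene lists were chosen with earlier results of these data known. The table's 24393 genes were matched by Entrez identifier to RefSeq (24312 matched), and 52 damaged or blank symbols were restored from their identifiers.

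Genes passing filterByExpr by group (minimum count 10, minimum total 15) were scaled by TMM and fitted over 6 groups without a block in edgeR 4.0.16 (R 4.3.3; robust quasi-likelihood), with Benjamini-Hochberg adjustment over 14179 genes and calls under 0.05. Standard errors were derived from each log2 fold change and its F statistic (SE = |log2 FC| / √F). Exon lengths are unions over GENCODE M21 basic transcripts. All 8 members are named; from each list, up to 4 genes per DKO comparison with an adjusted p under 0.05 and a mean of at least 2 CPM, by size of change; and the 3 genes most like each member by Pearson r of log2 CPM (prior count 0.5), of which some are not reported here. Rgs1, Gng5 and Gnb5 were named after their values were seen. The procedure was tested on simulated data.

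Replicate numbers were checked for pairing. FAP and Misc libraries of 1 number and genotype deviated together across genes (over 4 pairs, r was 0.18 to 0.34 for DKO and 0.18 to 0.23 for WT), so they were taken as paired; this comes from the check alone, as no label states it. Alternatives were DESeq2 1.42.0 size factors and its Wald test, no filter, only the compared groups, replicate blocks, each replicate left out, a threshold of 0.01, and a prior count of 2.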

Additional observations from a re-analysis of the deposited data

Results flagged for a closer look

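Rgs17 in Misc DKO was flagged because replicate 3, at 3 CPM, stood far from the other libraries of its group, which lay between 0.647 and 0.871 CPM. Without it the DKO minus WT difference in Misc was −2.92 rather than −2.11 on the log2 scale. It was the 1 flag among 32 groups of 4 libraries examined, and chance flags about 1 in 20 such groups.

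The DKO difference of 4 members differed between populations by the interaction test across all genes. This is given as description, because the members were chosen with results of these data known. The fits below that leave out 1 library reuse the same data and are no independent support. For FAP minus SMP the log2 values were 1.24 for Rgs2, 4.75 for Rgs4, −1.09 for Rgs10 and 1.85 for Rgs16. For Misc minus SMP they were 1.24 for Rgs2, 6.36 for Rgs4, −1.22 for Rgs10 and 1.98 for Rgs16. Rgs2, Rgs4 and Rgs16 kept their calls in all 12 fits that left out 1 library, in both interactions. Rgs10 lost its call without SMP DKO replicate 2, where the value was −0.62 for FAP minus SMP and −0.76 for Misc minus SMP, and without SMP WT replicate 1; the FAP minus SMP call was also lost without SMP WT replicate 2.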

How the results depend on the processing

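No member's difference between genotypes or populations changed direction while called. In the interaction FAP minus Misc, 2 members were called by the DESeq2 Wald test, 1 without the filter and 2 with only the groups compared. With only the groups compared, Rgs5 passed in Misc DKO against WT, SMP DKO against WT gave 924 genes and 2 members, and Misc minus SMP 800 genes. At a threshold of 0.01 the genes called were 737 in FAP, 1473 in Misc and 1477 in SMP, and 160, 538 and 526 for the interactions FAP minus Misc, FAP minus SMP and Misc minus SMP. Leaving out 1 library gave 932 (without FAP DKO replicate 2) to 1696 genes in FAP DKO against WT, where 997 were called without FAP WT replicate 1, and 1821 (without SMP WT replicate 1) to 2830 in SMP. It gave 777 to 1783 genes for FAP minus SMP and 782 to 1583 for Misc minus SMP, both lowest without SMP WT replicate 1 and highest without SMP DKO replicate 1, and 5 (without SMP DKO replicate 1) to 8 members for Misc against SMP in DKO. The replicate block over all groups changed 0 of 96 member calls, with shifts of at most 0.32; the replicate block within genotype, chosen after seeing the data, gave 7 members for FAP against Misc in WT, and 2 members and 1246 genes for the interaction FAP minus Misc. No label says that numbers pair DKO with WT, and not every same-numbered pair correlated there (r from −0.06 to 0.29 in FAP and from −0.16 to 0.03 in Misc, against −0.21 to 0.16 and −0.09 to 0.11 for other numbers).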
